A study of Mus musculus with 12 samples.

Results

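The change in RNA abundance between mitotic and asynchronous cells in the RPL12 S38D line was set against the same change in the WT line, as the difference of the 2 log2 changes (S38D minus WT). It compares 8 of the 12 libraries of the series, 2 in each of 4 groups, over all 10477 of 51826 genes that passed a filter on low counts. That filter, the scaling and the estimate of spread used all 12 libraries. A positive value means that mitotic relative to asynchronous RNA was higher in S38D than in WT, whichever way either line moved. S38D mitotic and S38D asynchronous cells carried aspartate in place of serine 38 of RPL12, and WT mitotic and WT asynchronous cells carried unchanged RPL12. The mitotic cells of both lines had been held for 8 h in 100 ng/mL nocodazole, a microtubule poison, and then kept for 10 min in fresh medium, and the asynchronous cells are labelled without it. All groups shared the 19DN background, which lacks the reporters of its parent 19PP, a murine B lymphoma line, and was grown in DMEM and collected in cycloheximide at 100 µg/mL, a drug that stops elongating ribosomes. The lymphoma came from a Rag2-/-γC-/- mouse that had received marrow in which Cγ1-Cre, active in B cells that switch to IgG1, turned on Myc and the active PI3K subunit P110*. The labels do not say how the RPL12 alleles were made, or whether a line is 1 clone. Another line, with alanine at position 38 (S38A), gave the other 4 libraries. Apart from the shared filter, scaling and estimate of spread, it is used here only where it is named.

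RPL12 (uL11) is a protein of the large ribosomal subunit at the base of the stalk that recruits translation factors. The genes described most closely below belong to the pathway that makes cholesterol from acetyl-CoA through mevalonate and squalene. Their shared activator SREBP2 is held in the endoplasmic reticulum (ER) and released to the nucleus when sterol is scarce, and it binds promoters beside NF-Y, which reads the letters CCAAT. ATF4, a second regulator with targets below, is a transcription factor made when translation initiation is restrained by stress or amino acid shortage.

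The 8 libraries held between 3432875 and 6523991 reads assigned to genes, and spike-in RNA equal to between 2.29% and 3.6% of them. Values per library are given as CPM, the share of a library's reads on the usual scale of that unit after TMM scaling, and error as the SE of a fitted log2 value. Reads came from the 3′ end of transcripts and do not show codon 38, so the counts of Rpl12 check no label. Replicates differed beyond counting error for 15.2% of genes in S38D mitotic, 43% in S38D asynchronous, 26% in WT mitotic and 12.7% in WT asynchronous cells. S38D asynchronous and WT mitotic replicates lay farthest apart on the first axis of differences within groups, at 31.7 and 19.9 units from their group means. P-values therefore reflect the spread among these samples alone, and that spread may be technical. All 10 B cell markers had reads, summing to 2037 to 2060 CPM in S38D mitotic, 3352 to 3655 in S38D asynchronous, 1576 to 1656 in WT mitotic and 2620 to 2754 in WT asynchronous libraries. Any read was found for 4 of 13 T and NK cell markers, 5 of 10 myeloid markers and 6 of 11 markers of stroma, epithelium and red cells, and Cd3d, Cd3e, Cd3g, Cd4, Cd8a, Itgam, Cd14 and Col1a2 had none. In bulk RNA, fewer cells of a kind and less RNA per cell cannot be told apart.

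The mitotic change differed between S38D and WT for 42 genes (0.401% of those tested) at an adjusted p under 0.05 in edgeR, the test behind every call below unless DESeq2 is named. It was higher in S38D for 15 genes (0.143%) and lower for 27 (0.258%). The lower genes were led by enzymes of cholesterol synthesis, with ATF4 targets, a tubulin and Dnmt1 beside them, and the higher genes included the transcription factors Jund and Cebpb and the ER cargo receptor Lman1. Of the 42 genes, 27 differed at least 2-fold, and their SE had a median of 0.206, against 0.302 over all genes. An unadjusted p under 0.05 was found for 2003 genes, 805 higher and 1198 lower. Within the lines the mitotic change itself was called for many more genes, 2762 (26.4%) in S38D and 2727 (26%) in WT. Without S38D mitotic replicate 1 or 2, or WT asynchronous replicate 1 or 2, the number of genes called for S38D minus WT was 0, and with 1 S38A library left out it was 21, 21, 3 and 3. It was 52 without S38D asynchronous replicate 1, 2757 without replicate 2, 3 without WT mitotic replicate 1, 26 without replicate 2, and 54 without the first replicate of both groups, of which 32 were among the 42. At an unadjusted p under 0.05 the 4 fits with 0 calls held 1458, 1469, 1232 and 1703 genes. Scaling to the spike-ins in edgeR called 0 genes, with 1615 at an unadjusted p under 0.05, and raised the median of all genes by 0.33. No called gene turned its sign in any of the 22 alternatives. These reuse the counts that picked the genes, so a kept sign is not independent support.

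Rises and falls within a line are relative to the bulk of its genes: with spike-in scaling the median change of all genes was -0.12 in S38D and -0.46 in WT. Of the 27 lower genes, 9 fell in mitosis in both lines and fell further in S38D, 8 fell in S38D and were not called in WT, 6 fell in S38D and rose in WT, and 4 were not called in S38D and rose in WT. With spike-in scaling these numbers were 11, 12, 0 and 2, and 2 were called in neither line. Of the 15 higher genes, 7 were not called in S38D and fell in WT, 3 rose in S38D and fell in WT, 3 rose in S38D and were not called in WT, and 2 rose in both, against 10, 1, 4 and 0 with spike-in scaling. For 23 of the 27 lower genes both S38D mitotic libraries lay below both WT mitotic libraries, while both S38D asynchronous libraries lay above both WT asynchronous ones for 17 and below them for 5. With spike-in scaling, which put the median of all genes at -0.38 for S38D minus WT in asynchronous cells, S38D lay below WT in mitotic libraries for 22, and in asynchronous libraries above WT for 7 and below it for 11. Over all genes, 4.56% were called between S38D and WT in mitotic cells and 8.99% in asynchronous cells. For 14 of the 15 higher genes both S38D asynchronous libraries lay below both WT asynchronous ones, and for 10 both S38D mitotic libraries lay above the WT ones. Most of the higher genes thus lay apart between the lines already in asynchronous cells.

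**Figure D1:**
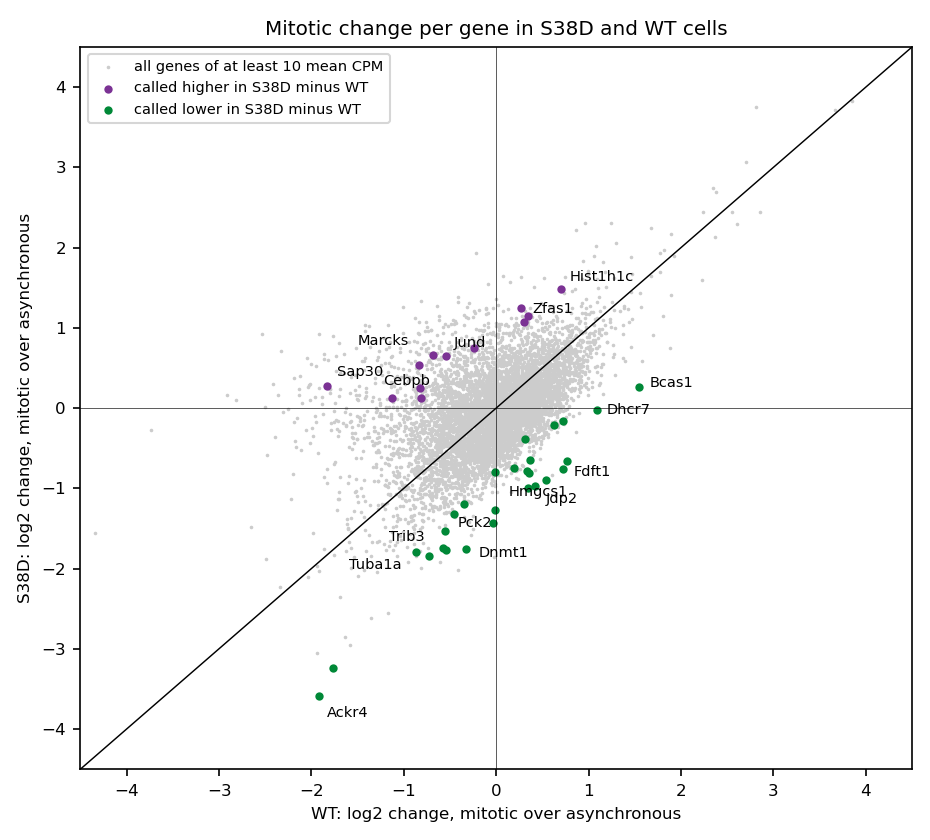
Mitotic over asynchronous log2 change in S38D (vertical axis) and in WT (horizontal axis), 1 point per gene of at least 10 mean CPM. Genes called higher (purple) and lower (green) in S38D minus WT lie above and below the diagonal of equal change, with cholesterol genes such as Fdft1 at lower right, where, with the TMM scaling plotted, S38D fell and WT rose.

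Rpl12 itself had 48 and 62.1 CPM in S38D mitotic and 35.8 and 28.3 CPM in S38D asynchronous libraries, against 73.5 and 74.4 CPM in WT mitotic and 39.9 and 39.1 CPM in WT asynchronous libraries. It rose in mitosis in both lines, by a log2 of 0.78 in S38D and 0.90 in WT. The difference of these changes was -0.12 (SE 0.228, adjusted p = 0.79), within the spread between libraries.

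Genes of cholesterol synthesis and other SREBP2 targets formed the main group. Of 26 listed genes 25 were measured, and 9 were lower and 0 higher in S38D minus WT, beside 0.258% lower among all genes. DESeq2 called 11 members lower, beside 77 of all 10477 genes. It gave no adjusted p to some genes of lower counts, such as Sap30, Jun and Vpreb3. Here and below these count as not called by DESeq2, though they remain among the 10477. The list's median was -0.68, against -0.04 over all genes, and 21 of its 25 members were below 0. In S38D cells 2 members rose in mitosis and 8 fell, with a median of -0.21, and with spike-in scaling 0 rose and 8 fell. In S38A cells 0 rose and 12 fell, with a median of -0.44, where 14.8% of all genes were called. In WT cells 12 rose and 2 fell, with a median of 0.36, but with spike-in scaling 1 rose and 4 fell, with a median of -0.09, which was 0.37 above that of all genes. Between the lines 17 members were lower in S38D than in WT among mitotic cells, where 4.56% of all genes were called, and 1 among asynchronous cells, where 8.99% were. With spike-in scaling these numbers were 15 and 6. The summed level of the list was 5200 and 5033 CPM in S38D mitotic and 6364 and 5985 CPM in S38D asynchronous libraries, against 8940 and 8535 CPM in WT mitotic and 6508 and 6462 CPM in WT asynchronous libraries. Of these 8 libraries, both WT mitotic ones stood above the other 6, and both S38D mitotic ones stood below the rest. The low mitotic level was not particular to S38D. The S38A libraries had 5152 and 4729 CPM in mitotic and 7327 and 7122 CPM in asynchronous cells. The list's median for S38A change minus WT change was -0.73.

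Along the pathway, the called members were spread from the first step to the last. Acat2, which joins acetyl-CoA units at its start, had 149 and 136 CPM in S38D mitotic and 264 and 182 CPM in S38D asynchronous libraries, against 338 and 286 CPM in WT mitotic and 183 and 184 CPM in WT asynchronous libraries. Its change differed by -1.42 (SE 0.236, adjusted p = 0.0354). The mitotic libraries of the 2 lines did not overlap, while WT asynchronous libraries fell within the range of the S38D ones.

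Hmgcs1, the synthase that makes HMG-CoA, had the smallest adjusted p of all genes. It had 425 and 404 CPM in S38D mitotic and 736 and 717 CPM in S38D asynchronous libraries, against 906 and 796 CPM in WT mitotic and 673 and 656 CPM in WT asynchronous libraries. The S38D libraries were below WT in mitosis, by a log2 of -1.04, and slightly above WT in asynchronous cells, by 0.13 (adjusted p = 0.465), where spike-in scaling gave -0.25. Hmgcs1 fell by 0.81 in S38D and rose by 0.36 in WT, a difference of -1.17 (SE 0.147, adjusted p = 0.00638), called in 16 of 22 alternatives. With spike-in scaling its change was -0.92 in S38D, which was called, and -0.09 in WT, which was not.

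The kinases that phosphorylate mevalonate both had lower changes in S38D. Mvk had 38.1 and 40.6 CPM in S38D mitotic libraries and 97.9 and 98.7 CPM in WT mitotic libraries, with no overlap, and differed by -1.12 (SE 0.195, adjusted p = 0.0351). Pmvk, the second kinase, had 263 and 262 CPM in S38D mitotic and 522 and 493 CPM in WT mitotic libraries and differed by -1.01 (SE 0.187, adjusted p = 0.0354). Mvd, the decarboxylase after them, had a difference of -1.44 with a larger SE of 0.285 and an adjusted p of 0.0734 by edgeR (2.7e-05 by DESeq2), and its S38D asynchronous libraries stood at 851 and 526 CPM.

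Fdft1, squalene synthase, commits the pathway to sterols. It had 76.6 and 82.1 CPM in S38D mitotic and 154 and 115 CPM in S38D asynchronous libraries, against 236 and 225 CPM in WT mitotic and 136 and 143 CPM in WT asynchronous libraries. Its asynchronous libraries overlapped between the lines and its mitotic libraries did not. It fell by 0.76 in S38D and rose by 0.73 in WT, where spike-in scaling gave 0.28 with no call, a difference of -1.49 (SE 0.204, adjusted p = 0.00926). Fdft1 overlaps Ctsb on the other strand, and Cyp51 overlaps Akap9, so with the strand setting of the counting not given in the sources used here, reads of such pairs cannot be told apart.

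Among enzymes that turn lanosterol into cholesterol, Cyp51, Msmo1, Nsdhl and Dhcr7 were called. Msmo1, a methylsterol oxidase, had 618 and 615 CPM in S38D mitotic and 675 and 709 CPM in S38D asynchronous libraries, against 1071 and 990 CPM in WT mitotic and 641 and 603 CPM in WT asynchronous libraries. Its change of -0.17 in S38D was not called and it rose by 0.73 in WT, where spike-in scaling gave 0.29 with no call, a difference of -0.90 (SE 0.142, adjusted p = 0.0213). Cyp51, the lanosterol demethylase, rose by 0.63 in WT, where spike-in scaling gave 0.18 with no call, and differed by -0.84 (SE 0.162, adjusted p = 0.036). Dhcr7, the last reductase, had 38.7 and 33.3 CPM in S38D mitotic and 63.5 and 68.5 CPM in WT mitotic libraries and differed by -1.11 (SE 0.209, adjusted p = 0.036). Nsdhl, a sterol dehydrogenase, was the only one of the 9 that fell in both lines. It fell by 1.19 in S38D and fell by 0.35 in WT, and differed by -0.84 (SE 0.153, adjusted p = 0.0354).

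The other 16 measured members were not called by edgeR and ranged from -1.44 for Mvd to 0.67 for Srebf2, the gene of SREBP2. Srebf2 had 483 and 478 CPM in S38D mitotic and 301 and 496 CPM in S38D asynchronous libraries, against 325 and 556 CPM in WT mitotic and 586 and 578 CPM in WT asynchronous libraries, with an SE of 0.49. The number of members called lower was 0 without either S38D mitotic or either WT asynchronous library, 10 and 13 without S38D asynchronous replicates 1 and 2, 2 and 5 without WT mitotic replicates 1 and 2, and 2 without either S38A asynchronous library. It was 11 without the first replicates of S38D asynchronous and WT mitotic cells and 0 with spike-in scaling, where the list's median of -0.35 still lay 0.63 below that of all genes.

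**Figure D2:**
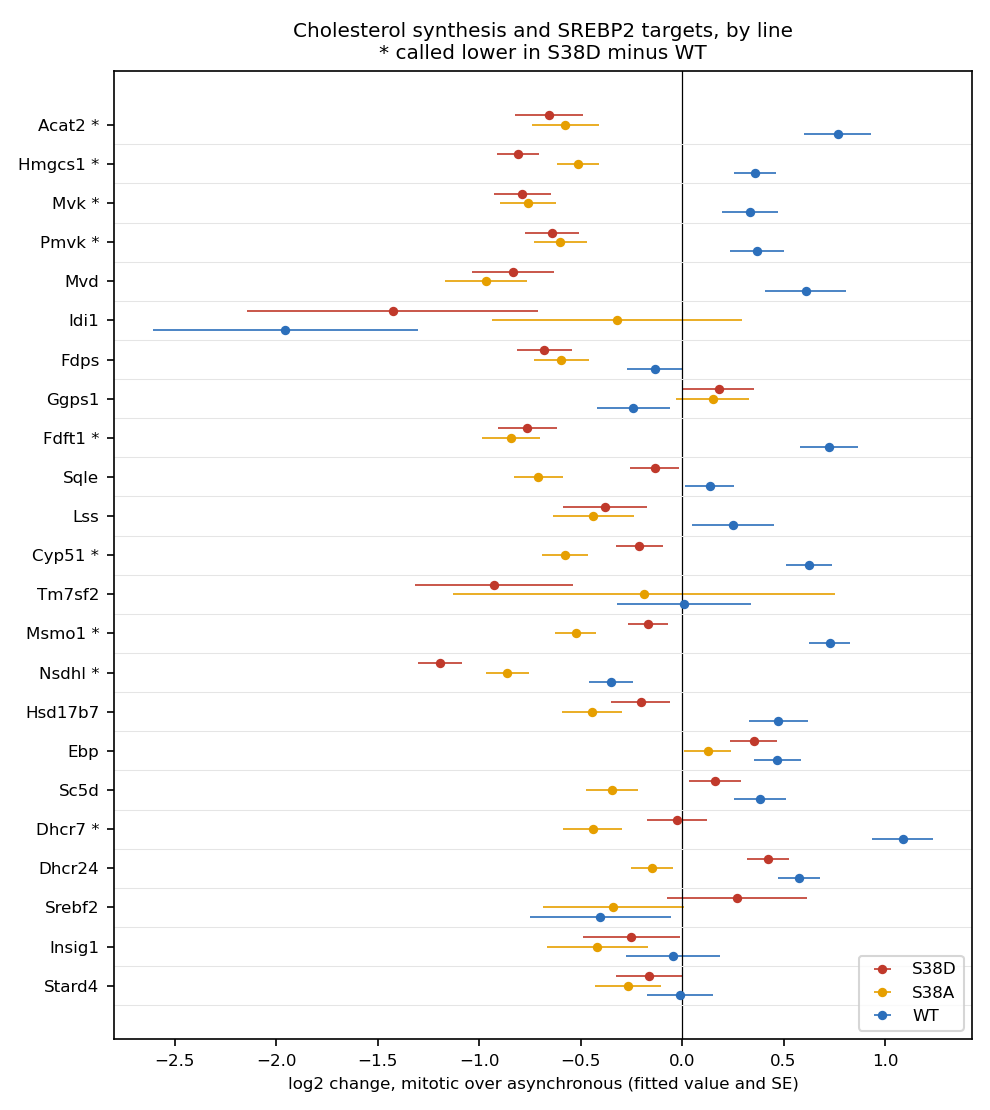
Log2 change, mitotic over asynchronous, of 23 of the 25 measured genes of cholesterol synthesis and other SREBP2 targets in S38D, S38A and WT cells, in pathway order from top to bottom with regulators last (points are fitted values, bars the SE). For the 9 starred genes the S38D point lies left of the WT point, and the S38A point lies left of 0.

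The S38A line gives a second comparison that uses no WT library. For S38D minus S38A 4 genes were called (0.0382%), none of them in the cholesterol list, whose median was 0.13. The values for S38D minus S38A of Fdft1, Acat2, Mvk and Hmgcs1 were 0.08, -0.08, -0.03 and -0.30, beside -1.49, -1.42, -1.12 and -1.17 against WT. Those of Cyp51, Msmo1 and Nsdhl were 0.37, 0.36 and -0.33, beside -0.84, -0.90 and -0.84 against WT. The 4 genes were Ackr4 (-1.94), Top1 (-1.24), Trib3 (-1.20) and Zfas1 (1.23), of which Top1 was not called against WT (-0.42, adjusted p = 0.286). The comparisons with WT and with S38A share the S38D libraries.

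Promoter sequence shows what some of these genes hold near their start. The windows come from RefSeq on GRCm38.p6 and run from 250 bases before the start to 50 after it. Of the 26 listed genes 18 had a window, and of the 42 called genes 29. Some genes had more than 1 window, with 21 windows for the 18 and 40 for the 29, beside 32851 for all 27025 genes. A motif was counted for a gene if any of its windows held it. Both strands were searched for CCAAT, for TCACNCCAC, the core of the sterol element that SREBP2 binds, and for TGATGNAA, the core of the element that ATF4 binds with C/EBP partners. In the windows shown no motif overlapped another. CCAAT was found in 17 of the 18 cholesterol genes (94.4%) and in 41.1% of the 27025 genes of the table. By window it was found in 81% and 37.4%. Of the 29 called genes with a window, 14 held it (48.3%), and 42.5% of their windows did. Of the 8 called cholesterol genes with a window, 7 held it (87.5%), and 63.6% of their windows did. TCACNCCAC was found in 1 of the 18, Hmgcs1, and in 1.44% of all genes. A match is a description of the letters and shows no binding. The 3 windows below are from called genes, read 5′ to 3′ on the strand of the gene, with motifs on either strand in capitals. The Hmgcs1 window (chr13:119690101-119690400, plus strand) has TCACNCCAC 137 bases before the start and 4 CCAAT boxes, all read on the other strand as ATTGG. The Mvk window (chr5:114444019-114444318, plus strand) has 5 CCAAT boxes, and that of Msmo1 (chr8:64733529-64733828, minus strand) has 3.
Hmgcs1: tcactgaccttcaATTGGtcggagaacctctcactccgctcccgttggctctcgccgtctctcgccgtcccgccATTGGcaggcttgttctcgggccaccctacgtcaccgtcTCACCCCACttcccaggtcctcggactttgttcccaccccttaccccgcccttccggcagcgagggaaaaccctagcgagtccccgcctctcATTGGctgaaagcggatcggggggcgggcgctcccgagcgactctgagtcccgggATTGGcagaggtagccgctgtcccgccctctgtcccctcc
Mvk: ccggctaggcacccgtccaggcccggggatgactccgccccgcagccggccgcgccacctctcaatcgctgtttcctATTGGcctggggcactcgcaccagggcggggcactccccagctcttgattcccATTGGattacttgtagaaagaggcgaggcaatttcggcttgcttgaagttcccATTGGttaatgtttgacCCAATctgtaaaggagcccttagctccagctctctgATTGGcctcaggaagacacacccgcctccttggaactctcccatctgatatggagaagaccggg
Msmo1: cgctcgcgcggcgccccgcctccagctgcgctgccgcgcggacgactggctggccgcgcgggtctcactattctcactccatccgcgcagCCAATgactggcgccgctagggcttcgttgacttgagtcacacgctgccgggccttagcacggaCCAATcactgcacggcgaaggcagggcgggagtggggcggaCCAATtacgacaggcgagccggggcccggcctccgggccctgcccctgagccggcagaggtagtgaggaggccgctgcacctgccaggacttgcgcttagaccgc

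Targets of ATF4 and the integrated stress response were less uniform. Of 40 listed genes 35 were measured, with 2 lower and 1 higher, beside 0.258% lower and 0.143% higher among all genes. DESeq2 called 4 lower and 1 higher, beside 77 lower and 31 higher of all 10477 genes. The list's median was -0.35, beside -0.04 for all genes. In S38D 18 members fell in mitosis and 4 rose, where 26.4% of all genes were called, and in WT 11 fell and 4 rose, where 26% were. With spike-in scaling 18 fell and 2 rose in S38D, and 21 fell and 0 rose in WT. Between the lines 22 members were lower in S38D than in WT in mitotic cells, where 4.56% of all genes were called, and 20 in asynchronous cells, where 8.99% were (21 and 28 with spike-in scaling). With spike-in scaling the list's median for S38D minus WT change was -0.01, still 0.30 below that of all genes.

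Trib3, a pseudokinase that ATF4 induces and that dampens it, stood further below WT in mitotic cells than any other called gene (-3.08). Trib3 had 26.6 and 24.5 CPM in S38D mitotic and 92.6 and 77.8 CPM in S38D asynchronous libraries, against 229 and 202 CPM in WT mitotic and 293 and 351 CPM in WT asynchronous libraries. It fell by 1.74 in S38D mitosis and fell by 0.58 in WT, a difference of -1.16 (SE 0.185, adjusted p = 0.0213), and was called against S38A as well (adjusted p = 0.0337). Jdp2, a repressor that pairs with Jun proteins, had 22.9 and 22.6 CPM in S38D mitotic and 49.7 and 39.6 CPM in S38D asynchronous libraries, against 100 and 82.9 CPM in WT mitotic and 70 and 66.9 CPM in WT asynchronous libraries. It fell by 0.97 in S38D and rose by 0.42 in WT, where spike-in scaling gave -0.02 with no call, with a difference of -1.39 (SE 0.202, adjusted p = 0.0126). For both genes the lines did not overlap in either state.

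Pck2, the mitochondrial enzyme that makes phosphoenolpyruvate, is not on the list but is called and known as an ATF4 target. It had 43.1 and 40.8 CPM in S38D mitotic and 133 and 109 CPM in S38D asynchronous libraries, against 147 and 126 CPM in WT mitotic and 188 and 212 CPM in WT asynchronous libraries. It fell in both lines and differed by -0.98 (SE 0.178, adjusted p = 0.0354). Chac1, which degrades glutathione, Mthfd1l of mitochondrial folate metabolism and Pycr1 of proline synthesis had values of -1.39, -0.94 and -1.30. They were not called by edgeR (adjusted p = 0.0876, 0.0734 and 0.0939). DESeq2 called Mthfd1l (adjusted p = 0.0146) and gave no adjusted p for Chac1 and Pycr1. Atf4 itself had a value of -0.24 (SE 0.174, adjusted p = 0.455).

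Cebpb, a transcription factor that can pair with ATF4, went the other way. It had 28.6 and 21.9 CPM in S38D mitotic and 21 and 25.1 CPM in S38D asynchronous libraries, against 37.2 and 41.7 CPM in WT mitotic and 78.2 and 94.7 CPM in WT asynchronous libraries. Its change of 0.13 in S38D was not called and it fell by 1.13 in WT, which gave 1.26 (SE 0.249, adjusted p = 0.0371). Its S38D libraries were below the WT libraries in both states.

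TGATGNAA was found in the windows of Trib3, Pck2 and Jdp2, 3 of the 29 called genes with a window (10.3%), and in 4.51% of all genes. By window it was found in 7.5% and 3.97%. The window shown for each of the 3 genes was picked because it holds the motif. The Trib3 window (chr2:152344011-152344310, minus strand) has it 14 bases after the start, that of Pck2 (chr14:55540016-55540315, plus strand) 103 bases before it beside a CCAAT box, and that of Jdp2 (chr12:85599166-85599465, plus strand) 33 bases before it. In the windows of Trib3 and Pck2 it reads on the other strand.
Trib3: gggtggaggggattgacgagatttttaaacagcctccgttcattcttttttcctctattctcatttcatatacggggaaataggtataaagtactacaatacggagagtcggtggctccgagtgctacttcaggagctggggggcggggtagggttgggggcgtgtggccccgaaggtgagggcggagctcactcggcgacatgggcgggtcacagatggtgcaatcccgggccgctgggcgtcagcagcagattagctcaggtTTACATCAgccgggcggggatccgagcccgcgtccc
Pck2: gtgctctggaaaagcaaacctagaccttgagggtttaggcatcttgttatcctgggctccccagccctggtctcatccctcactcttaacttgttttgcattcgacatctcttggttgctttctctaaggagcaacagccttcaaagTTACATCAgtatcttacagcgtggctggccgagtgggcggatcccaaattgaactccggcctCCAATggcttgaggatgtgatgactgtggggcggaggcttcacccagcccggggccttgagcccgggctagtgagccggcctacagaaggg
Jdp2: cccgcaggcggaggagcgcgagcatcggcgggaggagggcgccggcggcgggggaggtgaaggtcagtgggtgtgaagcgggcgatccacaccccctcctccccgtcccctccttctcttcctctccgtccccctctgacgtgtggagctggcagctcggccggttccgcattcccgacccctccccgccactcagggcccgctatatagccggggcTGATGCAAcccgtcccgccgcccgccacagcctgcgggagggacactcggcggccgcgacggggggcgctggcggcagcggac

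**Figure D3:**
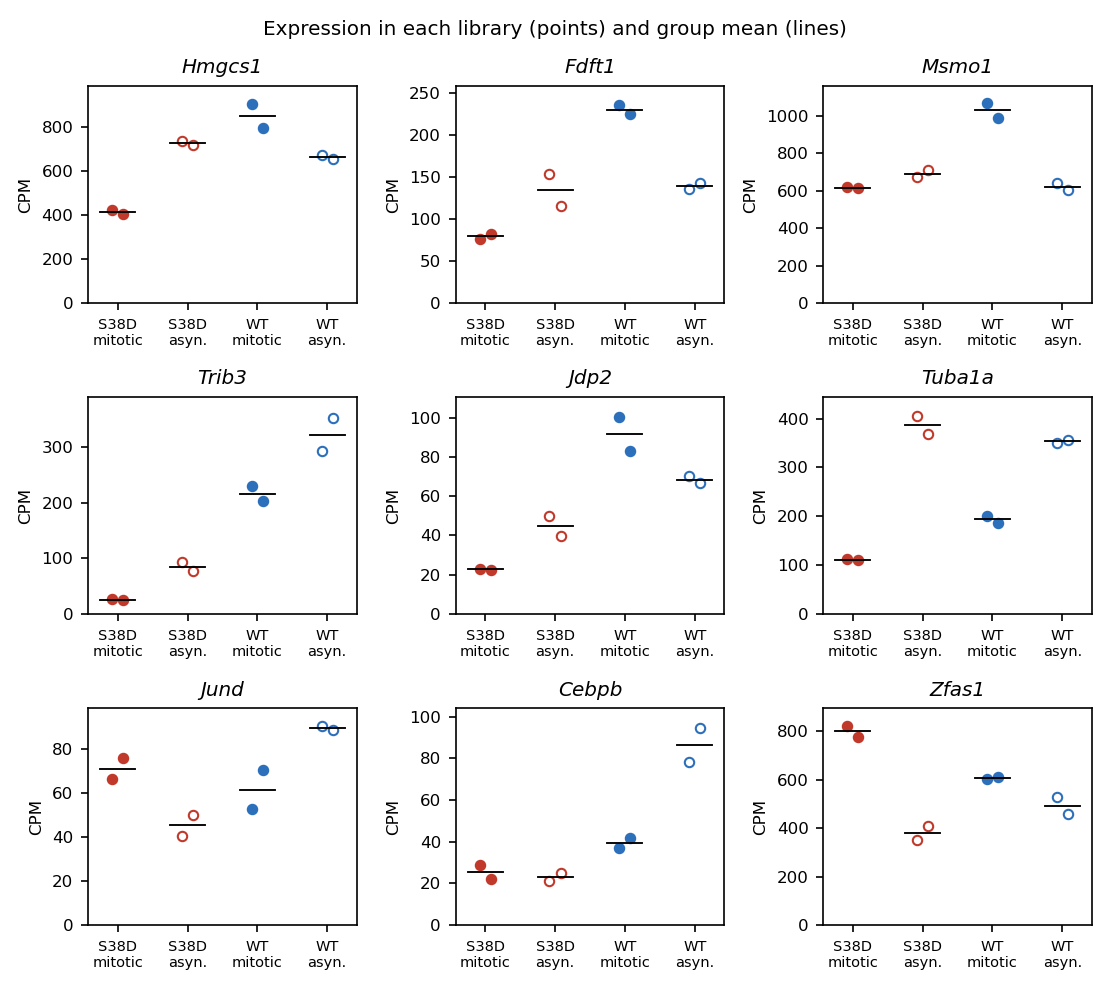
CPM of 9 called genes in each library (points) with group means (lines), for S38D mitotic, S38D asynchronous, WT mitotic and WT asynchronous cells. Hmgcs1, Fdft1 and Msmo1 are highest in WT mitotic libraries, Trib3 and Jdp2 are low in S38D in both states, and Jund and Cebpb are highest in WT asynchronous libraries.

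Tubulin genes fell in mitosis in both lines. Of 13 measured tubulins 10 fell in S38D and 8 in WT, where 26.4% and 26% of all genes were called. The median difference was -0.59, with 12 of 13 below 0, beside 53.1% of all genes. edgeR called 1 lower, beside 0.258% of all genes, and DESeq2 called 3, beside 77 lower of all 10477 genes. Tuba1a, an α-tubulin, had 112 and 111 CPM in S38D mitotic and 404 and 369 CPM in S38D asynchronous libraries, against 201 and 186 CPM in WT mitotic and 351 and 356 CPM in WT asynchronous libraries. The S38D libraries were below WT in mitosis, by a log2 of -0.80, and slightly above WT in asynchronous cells, by 0.13 (adjusted p = 0.464), where spike-in scaling gave -0.26. Its difference was -0.93 (SE 0.149, adjusted p = 0.0213). Tubb2a, a β-tubulin, had a value of -1.26 at an adjusted p of 0.0502 by edgeR and 0.0304 by DESeq2, and Tuba1b -0.72 at 0.0734 by edgeR and 0.0276 by DESeq2. In asynchronous cells 7 tubulins were higher in S38D than in WT and 1 lower, where 8.99% of all genes were called, and in mitotic cells 1 was higher and 2 lower, where 4.56% were. With spike-in scaling 1 was higher and 1 lower in asynchronous cells. α-Tubulin genes are near copies, and the handling of reads that match several of them is not given in the sources used here.

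Dnmt1, Parp1 and Rmi2, which act on DNA, were among the lower genes. Dnmt1, which keeps up DNA methylation after replication, had 119 and 107 CPM in S38D mitotic and 438 and 322 CPM in S38D asynchronous libraries, against 195 and 189 CPM in WT mitotic and 202 and 281 CPM in WT asynchronous libraries. It fell by 1.75 in S38D and its change of -0.33 in WT was not called (-0.79 and called with spike-in scaling), a difference of -1.43 (SE 0.249, adjusted p = 0.036). The lines did not overlap in either state and lay in opposite order, although the asynchronous libraries overlapped with spike-in scaling. Parp1, which marks DNA breaks (-0.79, SE 0.162), and Rmi2, of the complex that dissolves recombination intermediates (-0.94, SE 0.193), were called at an adjusted p of 0.0455 each. Both fell in S38D and were not called in WT, where Parp1 fell with spike-in scaling. Of the 74 genes of the G1/S and replication list, edgeR called Dnmt1 alone and DESeq2 called 5 lower and 1 higher, with 24 lower and 4 higher at an unadjusted p under 0.05. Of 71 G2/M and mitosis genes edgeR called 0, with 19 lower and 4 higher at an unadjusted p under 0.05 and 3 called by DESeq2. Incenp, a chromosome passenger protein, had the smallest p among them (-1.06, adjusted p = 0.0734). Of all 10477 genes edgeR called 0.258% lower and 0.143% higher, and DESeq2 77 lower and 31 higher. At an unadjusted p under 0.05, 1198 of all genes were lower and 805 higher.

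The largest fall in S38D among the lower genes was that of Ackr4, a decoy receptor that clears chemokines. Ackr4 had 4.53 and 3.8 CPM in S38D mitotic and 50.6 and 49.7 CPM in S38D asynchronous libraries, against 4.53 and 7.68 CPM in WT mitotic and 25.2 and 20.4 CPM in WT asynchronous libraries. In mitotic cells 1 library of each line stood at 4.53 CPM, and the lines lay apart in asynchronous cells. It fell in both lines, and the difference was -1.66 (SE 0.314, adjusted p = 0.036). Nrep had the same form, as it fell by 3.24 in S38D and fell by 1.76 in WT, with a difference of -1.48 (SE 0.304, adjusted p = 0.0455).

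For Eif5b, Sipa1 and Itgb3 the mitotic libraries of the lines lay close together and the asynchronous ones apart. Eif5b, the factor that joins ribosomal subunits at initiation, had 44.1 and 38.4 CPM in S38D mitotic and 91.8 and 61.2 CPM in S38D asynchronous libraries, against 46.5 and 39.3 CPM in WT mitotic and 30.7 and 28.1 CPM in WT asynchronous libraries. It fell by 0.89 in S38D and differed by -1.44 (SE 0.274, adjusted p = 0.036). Eif5b was the only one of 56 translation factors that edgeR called, beside 0.401% of all genes. Sipa1, which switches off Rap GTPases, differed by -1.34 (SE 0.249, adjusted p = 0.036), and Itgb3, the β3 integrin subunit, by -1.26 (SE 0.248, adjusted p = 0.0361). Bcas1 took another form: its change of 0.27 in S38D was not called, it rose by 1.55 in WT, and it differed by -1.28 (SE 0.251, adjusted p = 0.036).

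The remaining 5 lower genes ranged from -1.40 to -0.69. They were the deubiquitinase Otub2 (-1.12), Rnf157 (-1.23), the actin-binding Lasp1 (-0.87), Erg28 (-0.69), whose yeast counterpart holds sterol enzymes together, and 4933404O12Rik (-1.40). Erg28 fell in S38D and rose in WT, with -0.14 and no call in WT under spike-in scaling.

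Among the 15 higher genes, Jund was the only called one of the 11 measured genes of the AP-1 list, beside 0.401% called among all genes. Jdp2, which pairs with Jun proteins and was called lower (-1.39), is not on that list. Jund, a Jun family transcription factor, had 66.5 and 75.9 CPM in S38D mitotic and 40.7 and 50 CPM in S38D asynchronous libraries, against 52.7 and 70.4 CPM in WT mitotic and 90.7 and 88.7 CPM in WT asynchronous libraries. Its mitotic libraries overlapped between the lines and its asynchronous libraries did not. It rose by 0.65 in S38D (0.52 with no call under spike-in scaling) and fell by 0.55 in WT, a difference of 1.20 (SE 0.219, adjusted p = 0.0354). Jun and Fos, which rose strongly in both lines, had differences of 0.95 (adjusted p = 0.136) and 1.87 (adjusted p = 0.231).

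Sap30, a subunit of the Sin3 histone deacetylase complex, had the highest value among genes of at least 10 mean CPM. It had 12.8 and 11.4 CPM in S38D mitotic and 9.07 and 11 CPM in S38D asynchronous libraries, against 6.05 and 8.78 CPM in WT mitotic and 24.4 and 28.3 CPM in WT asynchronous libraries. Its change of 0.27 in S38D was not called and it fell by 1.83 in WT, a difference of 2.11 (SE 0.406, adjusted p = 0.036). Marcks, which binds actin and membranes, had 56.6 and 66.5 CPM in S38D mitotic and 33.3 and 44.9 CPM in S38D asynchronous libraries, against 62 and 79 CPM in WT mitotic and 112 and 114 CPM in WT asynchronous libraries. It rose in S38D, where spike-in scaling gave 0.52 with no call, and fell in WT (1.34, SE 0.245, adjusted p = 0.0354). For both genes WT asynchronous libraries stood above all others. The mitotic change in S38A minus that in WT was 2.45 for Sap30 and 1.97 for Marcks. For these 2 genes the difference from WT was thus not particular to S38D. The same held for Cebpb (1.42), Hist1h1c (1.16), Mia2, Cntrob and Fbxl4, whose S38A difference from WT was called with the sign seen in S38D. Among lower genes it was called for Msmo1 (-1.25), Cyp51 (-1.20), Erg28 (-0.85), Tuba1a (-0.85) and others. It was not called for some genes, such as Trib3 (0.03), Ackr4 (0.27), Dnmt1 (-0.81), Jund (0.45) and Zfas1 (-0.45).

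The other higher genes included Lman1 and Mia2, both of ER export. Lman1, a lectin that carries glycoproteins out of the ER, rose in S38D and was not called in WT, where it fell with spike-in scaling (0.99, SE 0.193, adjusted p = 0.036). Mia2, which helps load large cargo at ER exit sites, fell in WT (1.08, SE 0.21, adjusted p = 0.036). Tmem128 (1.37), Tmem158 (0.97), Leprotl1 (0.80) and Ly6d (0.94), a surface protein of early lymphoid cells, were called as well. The 27 measured genes of the ER unfolded protein response had a median of 0.31, with 5 below 0, beside 53.1% of all genes. None was called by edgeR, beside 0.401% of all genes, and 1 by DESeq2, beside 108 of all 10477. At an unadjusted p under 0.05 they held 1 lower and 5 higher, beside 1198 lower and 805 higher among all genes. Hsp90b1, an ER chaperone, had a value of 1.31 (adjusted p = 0.109), while Xbp1, a regulator of that response, had -0.64 (adjusted p = 0.0939).

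Zfas1, a noncoding host of small nucleolar RNAs, had 822 and 778 CPM in S38D mitotic and 351 and 407 CPM in S38D asynchronous libraries, against 603 and 611 CPM in WT mitotic and 530 and 457 CPM in WT asynchronous libraries. The S38D libraries were above WT in mitosis and below WT in asynchronous cells. It rose by 1.08 in S38D and was not called in WT (0.30), a difference of 0.78 (SE 0.156, adjusted p = 0.04). It was higher against S38A too (1.23, adjusted p = 0.0073), and it overlaps Znfx1 on the other strand. Gas5, another such host, had 0.53 (adjusted p = 0.162). Hist1h1c, a linker histone, rose in both lines and more in S38D, with 0.25 and no call in WT under spike-in scaling (0.78, SE 0.15, adjusted p = 0.036).

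The 3 called genes under 10 mean CPM, all higher, were Fbxl4, Cntrob and Rbm3. They fell outside the rule for named genes and are given because they complete the count. Cntrob, of the centriole, had 1.85 and 2.54 CPM in S38D mitotic and 0.637 and 3.36 CPM in S38D asynchronous libraries, against 1.32 and 1.54 CPM in WT mitotic and 21.9 and 24.7 CPM in WT asynchronous libraries. Rbm3, a cold-induced RNA-binding protein, had 7.83 and 7.97 CPM in S38D mitotic and 4.46 and 5.3 CPM in S38D asynchronous libraries, against 4.16 and 1.76 CPM in WT mitotic and 9.39 and 11.9 CPM in WT asynchronous libraries. Fbxl4 had between 0.478 and 2.06 CPM in the 4 S38D libraries, against 0.189 and 0.658 CPM in WT mitotic and 5.87 and 5.67 CPM in WT asynchronous libraries.

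**Figure D4:**
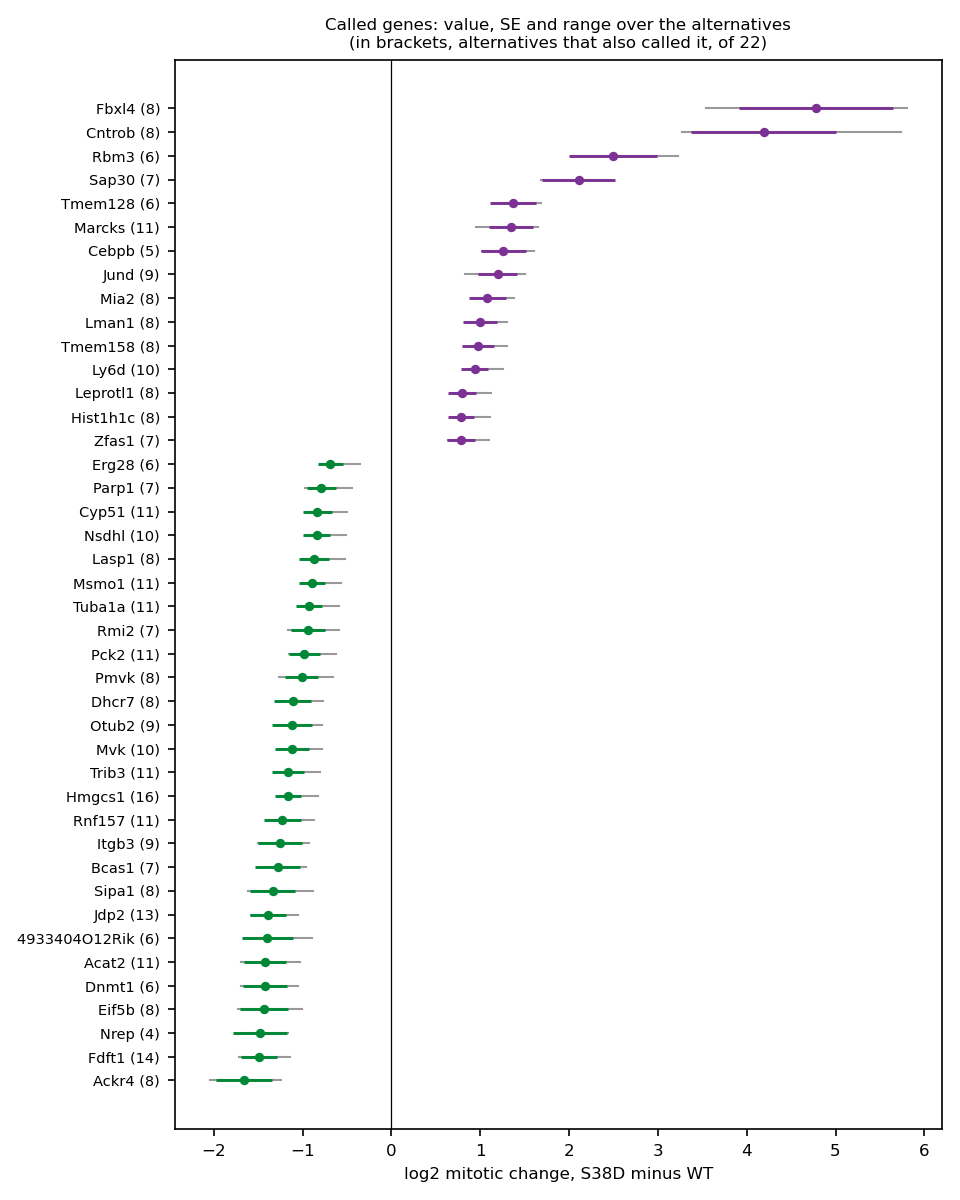
Log2 difference in mitotic change, S38D minus WT, of the 42 called genes (points, with the SE as coloured bars and the range over 22 alternatives as grey lines). No range crosses 0, and the number of alternatives that also called a gene, in brackets, runs up to 16 for Hmgcs1.

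Lists tied to the ribosome held few called genes, as did all genes tested, of which edgeR called 0.401%. With that share, 0 calls do not set a list of this size apart. edgeR called none of 80 cytosolic ribosomal protein genes (median 0.01), 93 ribosome biogenesis genes (0.02) and 10 genes of the stalk and the RPL12 neighbourhood (-0.11). At an unadjusted p under 0.05 these lists held 8 lower and 6 higher, 7 lower and 11 higher, and 1 lower and 0 higher. Among all 10477 genes 1198 were lower and 805 higher at that threshold. DESeq2 called 1, 0 and 0, beside 108 of all 10477 genes. The 23 aminoacyl-tRNA synthetases had a median of -0.27 with 9 lower and 0 higher at an unadjusted p under 0.05, and DESeq2 called 2. Cars and Yars, which charge cysteine and tyrosine, had the smallest p among them (-0.99 and -0.69, adjusted p = 0.0734 each).

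Genes that define the B cell showed no call by edgeR. It called 0.401% of all genes, so 0 calls do not set lists of this size apart. The medians were -0.20 for 41 B cell identity genes, -0.10 for 23 germinal centre genes and -0.25 for 24 MHC class II genes. At an unadjusted p under 0.05 there were 11 lower and 2 higher, 5 lower and 2 higher, and 6 lower and 5 higher. Among all 10477 genes 1198 were lower and 805 higher at that threshold. DESeq2 called 0, 0 and 2, beside 108 of all 10477 genes. Vpreb3 was nearest to the threshold (-1.37, adjusted p = 0.0502).

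Lists of the respiratory chain, mitochondrially encoded mRNAs, proteasome and p53 pathway held no call by edgeR or DESeq2. Of all 10477 genes edgeR called 0.401% and DESeq2 108, so 0 calls do not set lists of this size apart. The medians were -0.25 for 75 respiratory chain genes of the nucleus, 0.37 for 7 mitochondrially encoded mRNAs, -0.06 for 41 proteasome genes and 0.28 for 25 p53 pathway genes. At an unadjusted p under 0.05 they held 17 lower and 0 higher, 0 lower and 1 higher, 3 lower and 5 higher, and 3 lower and 3 higher. Among all 10477 genes 1198 were lower and 805 higher at that threshold. mt-Nd1, a complex I subunit, had 0.65 (adjusted p = 0.135), and Bax, an effector of apoptosis, 0.71 (adjusted p = 0.104).

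**Figure D5:**
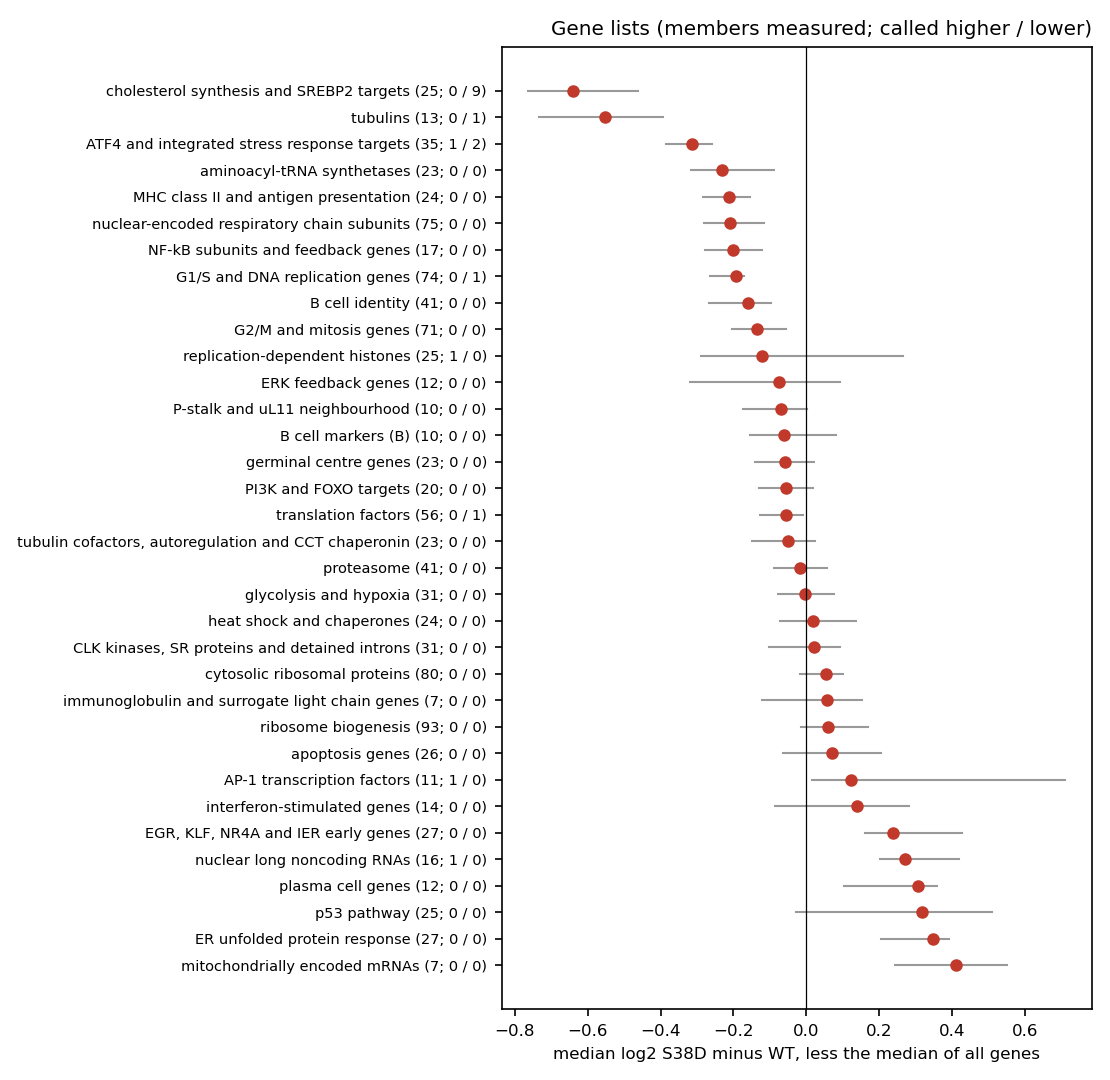
Median log2 difference in mitotic change, S38D minus WT, of each gene list less the median of all genes (red points), with the range over 22 alternatives (grey lines). Cholesterol genes lie lowest at -0.64, with a range of -0.76 to -0.46, followed by tubulins at -0.55, and mitochondrially encoded mRNAs lie highest at 0.41.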

How the data were processed

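RNA from cleared lysates was sequenced with a 3′ forward kit, with ERCC spike-ins, in 12 libraries. The deposited values are counts, whole reads per gene and library without normalization, and the submitters' processing notes name STAR 2.5.3a with mm10, cutadapt 1.12 and bcl2fastq 2.16.0.10. How reads were assigned to genes, strand included, is not stated in those notes. Gene symbols came from GENCODE M21 on GRCm38 and matched 99.6% of identifiers.

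Genes were filtered with filterByExpr (minimum count 10), scaled with TMM and fitted on all 12 libraries with a mean per group in edgeR 4.0.16 (R 4.3.3). Quasi-likelihood F tests with robust estimation, 6 residual degrees of freedom and a biological coefficient of variation of 0.143 shared by all genes were adjusted by Benjamini-Hochberg over 10477 genes and called at an adjusted p under 0.05. Named were Rpl12, the 10 highest and 10 lowest called genes of at least 10 mean CPM with a standard symbol, and up to 3 members of smallest p per list. Other called genes, Mvd, Srebf2, Atf4, Gas5 and the members beside the 3 of smallest p were picked with their values already seen. Some members counted in the lists are not reported here by name. The genes, the 37 lists and the tests were chosen with earlier results of these data known. Replicate numbers were not taken as pairs. Alternatives were DESeq2 1.42.0, limma-voom 3.58.1, other scalings and filters, a replicate block and left-out libraries. A library left alone in its group was assumed to vary like the others.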

Additional observations from a re-analysis of the deposited data

Results flagged for a closer look

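The 20 genes named for their size are those whose mitotic change differs between the lines by the test of that difference (log2, S38D minus WT). The values of the higher genes are 2.11 for Sap30, 1.37 for Tmem128, 1.34 for Marcks, 1.26 for Cebpb, 1.20 for Jund, 1.08 for Mia2, 0.99 for Lman1, 0.97 for Tmem158, 0.94 for Ly6d and 0.80 for Leprotl1. The values of the lower genes are -1.66 for Ackr4, -1.49 for Fdft1, -1.48 for Nrep, -1.44 for Eif5b, -1.43 for Dnmt1, -1.42 for Acat2, -1.39 for Jdp2, -1.34 for Sipa1, -1.28 for Bcas1 and -1.26 for Itgb3. Each group has 2 libraries, so no library was tested as an outlier within its group.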

How the results depend on the processing

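The number of genes called for S38D minus WT, 42, was 108 with DESeq2, 1 with limma-voom, 0 with spike-in scaling, 726 with no filter, 27 with a 10 CPM filter, 1 with robust estimation off and 0 with only the groups compared in the edgeR fit, where 1443 genes had an unadjusted p under 0.05. It was 0 to 2757 with 1 library left out, and 95 with the replicate block. The numbers were not taken to pair the samples, since of 15 correlations of replicate differences between groups 3 were above 0.1 and 3 below -0.1, from -0.45 to 0.83, the highest between S38D asynchronous and WT mitotic cells. For S38D minus S38A the 4 genes became 11 with DESeq2, 1 with limma-voom, 0 with spike-in scaling, 23 with no filter, 1 with robust estimation off, 2 with only the groups compared, 157 without replicate 1 of both S38D asynchronous and WT mitotic cells, where the data do not tell which of the 2 libraries stands apart, and 0 to 323 with 1 library left out. The mitotic changes, 2762 genes in S38D and 2727 in WT, were 1780 and 1806 with DESeq2, and 1475 to 3757 and 1105 to 3786 with 1 library left out. The cause of these moves was not tested. None of the 42 called genes was called in all 22 alternatives, and none turned its sign in any, though all reuse the same counts.

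Signs turned for a few genes that were not called. Rpl12 was 0.21 with spike-in scaling, 0.024 without that pair of libraries and -0.33 to 0.060 with 1 library left out, above 0 without S38D mitotic or S38D asynchronous replicate 1. Atf4 was 0.12 with spike-in scaling, and Srebf2 was -0.0092 without that pair of libraries. Some list medians moved as well. Without that pair the p53 pathway median of 0.28 became -0.04 and the aminoacyl-tRNA synthetase median of -0.27 became -0.10. The cholesterol median of -0.68 became -0.58. With 2 libraries a group and 3432875 to 6523991 reads a library, genes of few reads have wide counting error.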
